A study of Mus musculus with 16 samples.

Results

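The genes described here mark or steer the lining of blood vessels: 2 junction and adhesion molecules of endothelial cells (Pecam1, Cdh5), 2 receptors for vascular endothelial growth factor (Kdr, Flt1), the receptors Tek and Tie1, the ligands Angpt1 and Angpt2, the clotting factor carrier Vwf and the co-receptor Eng. They were taken by symbol from the 22911 gene symbols that the RefSeq accessions on the array could be matched to. All 10 were found, each with 1 probe, and every probe was well above background on all 16 arrays. RNA came from brown adipose tissue (BAT) and gonadal white adipose tissue (gWAT) of male Adipo-Pgam1 KO mice and littermate controls, with 4 arrays per tissue and genotype, and the question put to these genes was whether transcripts of the vessel wall differed between genotypes in each depot. Both genotypes carried floxed Pgam1 alleles, and the KO mice also carried Cre under the promoter of Adipoq, a gene of adipocytes, so that the deletion was aimed at fat cells and not at the endothelium. The labels give the strain as C57BL/6NCrSlc, normal chow, housing at 23 °C and 16 weeks as the age of all mice but the KO mice numbered 4, which in both tissues were 14 weeks old. They do not say whether BAT and gWAT with the same number came from the same mouse, and p-values therefore measure the spread between these samples.

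Blood vessels of fat carry fuel, oxygen and heat, and BAT is one of the most densely vascularized tissues. VEGF acts mainly through Kdr, while Flt1 binds the same ligands tightly with weak signalling of its own and so limits how much reaches Kdr. Angpt1, released by cells around the vessel, activates Tek and keeps vessels stable, whereas Angpt2, stored in endothelial cells, mostly opposes it, and Tie1 is a partner receptor that modulates Tek. Eng, an accessory receptor for ligands of the TGF-beta and BMP families, acts with the receptor Acvrl1 in endothelial cells.

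For the 4 receptor genes whose promoter was listed in RefSeq (GRCm38.p6), the 250 bases before the start site are shown because these genes are the core of both receptor systems. Promoter windows were found for 5 of the 10 genes, the remaining one being Eng. The GGAA core of ETS factors with its flank (CAGGAA and CCGGAA) and the forkhead core TGTTTAC were searched on both strands, and capitals mark a match on either strand.
Tek, chr4:94739039-94739288, plus strand: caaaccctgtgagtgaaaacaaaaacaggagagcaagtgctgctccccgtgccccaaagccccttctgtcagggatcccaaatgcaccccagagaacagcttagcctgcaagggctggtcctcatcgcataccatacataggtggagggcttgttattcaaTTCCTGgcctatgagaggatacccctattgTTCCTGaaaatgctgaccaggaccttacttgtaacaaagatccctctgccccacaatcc
Tie1, chr4:118489850-118490099, minus strand: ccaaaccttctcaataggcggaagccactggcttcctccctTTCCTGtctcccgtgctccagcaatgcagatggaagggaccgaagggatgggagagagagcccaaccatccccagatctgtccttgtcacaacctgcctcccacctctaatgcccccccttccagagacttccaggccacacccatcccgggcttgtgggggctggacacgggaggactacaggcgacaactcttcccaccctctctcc
Flt1, chr5:147726012-147726261, minus strand: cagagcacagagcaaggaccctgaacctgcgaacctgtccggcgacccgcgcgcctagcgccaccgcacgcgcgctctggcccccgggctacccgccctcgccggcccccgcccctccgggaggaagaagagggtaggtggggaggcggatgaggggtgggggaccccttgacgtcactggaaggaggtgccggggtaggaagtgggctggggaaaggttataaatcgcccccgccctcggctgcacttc
Kdr, chr5:75978456-75978705, minus strand: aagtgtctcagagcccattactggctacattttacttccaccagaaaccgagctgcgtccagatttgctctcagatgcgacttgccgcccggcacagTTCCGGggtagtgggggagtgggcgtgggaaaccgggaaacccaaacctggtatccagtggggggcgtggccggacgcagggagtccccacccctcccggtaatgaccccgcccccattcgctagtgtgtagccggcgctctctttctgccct
CAGGAA was present in 2 of the 5 windows, with matches beginning 89 and 59 bases before the start of Tek and 209 bases before that of Tie1, and in 25.7% of all 32851 windows of this length. CCGGAA was present in the Kdr window, 153 bases before the start, and in 12% of all windows. TGTTTAC was in none of the 5 and in 3.17% of all windows. The matches are letters in a window and not measured binding sites.

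Levels are given as log2 of the background-subtracted signal over the 75th percentile of the array, so that 1 unit is a 2-fold difference and 0 is the signal of the 75th percentile. Levels of different probes cannot be set against each other. Before these genes are described, the label was checked with Pgam1 itself. In BAT, Pgam1 was 7.94 ± 0.11 (SD, n = 4) in controls, and in the KO mice it was 6.20 ± 0.17 (SD, n = 4; limma, adjusted p = 1.11e-05). In gWAT it went against the label, at 5.36 ± 0.29 (SD, n = 4) in controls, while the arrays labelled Adipo-Pgam1 KO had 6.31 ± 0.25 (SD, n = 4; limma, adjusted p = 0.0139), so the gWAT directions below depend on the label. The same probe was lower on every KO array of BAT than on any BAT control. Where the probe lies relative to the deleted part was not checked, and a probe outside it might not test the label. The 75th percentile of the signal was 401 to 451 in BAT controls and 650.2 to 916 in the KO arrays of BAT, and 570.3 to 855 and 657 to 831 in the same groups of gWAT. Arrays lay on 3 slides, and slide and group overlapped in part: BAT controls 1 to 3 were alone on the slide numbered 1, and gWAT control 4 was the only control on slide 3 with the 4 gWAT arrays labelled Adipo-Pgam1 KO.

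Of the 10 genes, Angpt1 differed most between genotypes in both depots, and it was lower in each. In BAT, Angpt1 stood at 0.71, 0.97, 1.34 and 1.04 in the 4 controls and at -0.78, -0.73, -0.69 and -0.53 in the 4 Adipo-Pgam1 KO mice. Every control lay above every KO array, and the KO arrays were close together, with an SD of 0.11. The log2 difference was -1.70 (SE 0.14, limma, adjusted p = 2.47e-05), which is 3.25-fold lower. In gWAT, Angpt1 stood at 1.69, 2.10, 0.67 and 1.31 in controls and at -1.02, 0.52, -0.28 and -1.15 in the arrays labelled Adipo-Pgam1 KO. The groups again did not overlap, but the highest array labelled KO lay only just below the lowest control. Here the log2 difference was -1.92 (SE 0.42, limma, adjusted p = 0.0184), which is 3.79-fold lower. Among all genes tested, 61.5% were past an adjusted p of 0.05 in BAT and 17.8% in gWAT, and the groups did not overlap for 57.1% and 24.2%. The fall in gWAT was no longer past the threshold without array 1 labelled Adipo-Pgam1 KO (-1.74, limma, adjusted p = 0.0579). It was also not past it with the slide as a fixed block (-1.79). That estimate rests on gWAT control 4 as its only control, so the lost call cannot tell whether the fall holds. In BAT the difference was -1.72 on the slide shared by the groups. This slide holds only 1 BAT control, so that the spread there is that of the 4 KO arrays. The difference between the depots in this change was -0.22 (95% confidence interval -1.25 to 0.81, limma interaction, adjusted p = 0.726).

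**Figure D1:**
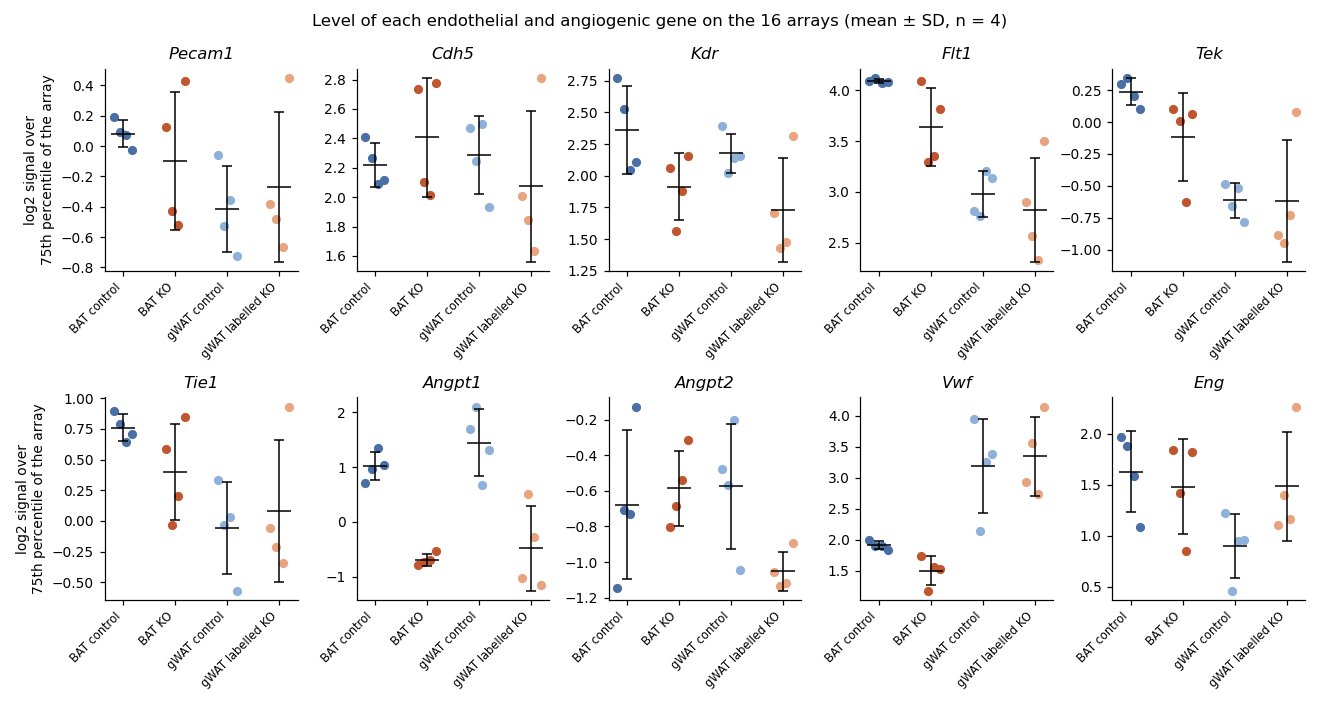
Level of each of the 10 genes on each of the 16 arrays, as log2 signal over the 75th percentile of the array (vertical axis, with its own range for each gene), with the mean and SD of the 4 arrays in each group. Angpt1 is lower on every Adipo-Pgam1 KO array of BAT (-0.78 to -0.53) than on any BAT control (0.71 to 1.34), and for most other genes the groups of a tissue overlap.

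The other ligand, Angpt2, did not pass the threshold in either depot. It was -1.15, -0.71, -0.73 and -0.13 in BAT controls and -0.80, -0.69, -0.54 and -0.31 in BAT of KO mice, a log2 difference of 0.09 (SE 0.21, limma, adjusted p = 0.720) whose 95% confidence interval ran from -0.42 to 0.61. In gWAT it was -0.48, -0.57, -0.20 and -1.05 in controls and -1.06, -1.13, -1.12 and -0.89 in the arrays labelled Adipo-Pgam1 KO. Of the gWAT controls only replicate 4 reached into the range of the arrays labelled KO. The log2 difference was -0.48 (SE 0.18, limma, adjusted p = 0.100). When each of the 8 gWAT arrays was left out in turn, 1 fit passed the threshold, without control 4 (-0.63, limma, adjusted p = 0.0302). In the other fits adjusted p ran up to 0.211 (limma). The receptor of both ligands, Tek, was 0.29, 0.35, 0.21 and 0.10 in BAT controls and 0.10, 0.01, -0.63 and 0.06 in BAT of KO mice. Replicate 3 of the KO mice lay far below the other 3, of which the highest reached the lowest control. The difference for Tek was -0.35 (SE 0.17, limma, adjusted p = 0.0993) in BAT and -0.01 (SE 0.23, limma, adjusted p = 0.988) in gWAT. Its partner Tie1 differed by -0.36 (SE 0.19, limma, adjusted p = 0.124) in BAT and 0.14 (SE 0.30, limma, adjusted p = 0.787) in gWAT.

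Of the VEGF receptors, neither passed the threshold in either tissue, and both had lower means in BAT of KO mice. Flt1 was nearly the same in the 4 BAT controls, at 4.09, 4.12, 4.07 and 4.08, and spread over 4.09, 3.29, 3.35 and 3.82 in Adipo-Pgam1 KO mice. Replicate 1 of the KO mice was as high as the controls, and the other 3 lay below all of them. The log2 difference was -0.45 (SE 0.18, limma, adjusted p = 0.0520). When each of the 8 BAT arrays was left out in turn, 1 fit passed the threshold, without KO replicate 1 (-0.60, limma, adjusted p = 0.00788). In the other fits adjusted p ran up to 0.134 (limma). Kdr was 2.77, 2.53, 2.04 and 2.10 in BAT controls and 2.06, 1.56, 1.88 and 2.16 in Adipo-Pgam1 KO mice (difference -0.45, SE 0.20, limma, adjusted p = 0.0773). In gWAT, Kdr was 2.39, 2.02, 2.14 and 2.16 in controls and 1.71, 1.43, 1.47 and 2.32 in the arrays labelled Adipo-Pgam1 KO. All labelled KO arrays but replicate 4 lay below every control. With all arrays the difference was -0.45 (SE 0.21, limma, adjusted p = 0.161). When each of the 8 gWAT arrays was left out in turn, 1 fit passed the threshold (-0.64, limma, adjusted p = 0.0199). It was the fit without labelled KO replicate 4, the mouse of 14 weeks. In the other fits adjusted p ran up to 0.337 (limma). Flt1 in gWAT differed by -0.16 (SE 0.25, limma, adjusted p = 0.697).

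Vwf was the only gene other than Angpt1 that passed the threshold in BAT. Vwf was 2.0, 1.91, 1.91 and 1.84 in BAT controls and 1.74, 1.18, 1.56 and 1.54 in Adipo-Pgam1 KO mice. The groups lay apart by a small gap, and the difference was -0.41 (SE 0.13, limma, adjusted p = 0.0197), or 1.33-fold lower. The call was lost within the shared slide with its 1 control (-0.34, adjusted p = 0.294) and without BAT control 1 (-0.38, adjusted p = 0.0507), and the sign turned under spike-in scaling (0.13, adjusted p = 0.498). In gWAT, Vwf was 3.95, 2.15, 3.26 and 3.39 in controls and 2.93, 3.56, 2.75 and 4.15 in the arrays labelled Adipo-Pgam1 KO, a wide and overlapping spread (difference 0.16, SE 0.42, limma, adjusted p = 0.824).

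The junction genes and Eng did not pass the threshold in either tissue. Pecam1, an adhesion molecule of endothelial cells, platelets and leukocytes, differed by -0.18 (95% confidence interval -0.69 to 0.33) in BAT and 0.15 (SE 0.25) in gWAT. Cdh5, the cadherin of endothelial junctions, differed by 0.19 (95% confidence interval -0.29 to 0.66) in BAT and -0.21 (-0.85 to 0.42) in gWAT. Eng was 1.22, 0.46, 0.95 and 0.96 in gWAT controls and 1.11, 1.40, 1.16 and 2.27 in the arrays labelled Adipo-Pgam1 KO. Only gWAT control 1 reached the arrays labelled KO, which for Eng had the higher mean (difference 0.59, SE 0.28, limma, adjusted p = 0.168). In BAT the difference of Eng was -0.15 (SE 0.27, limma, adjusted p = 0.652).

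In all, 2 of the 10 genes passed the threshold in BAT, both lower, and 1 of 10 passed in gWAT, also lower. Of all genes, 34% were called lower and 27.5% higher in BAT, and 7.85% and 9.99% in gWAT. The groups did not overlap for the same 2 of 10 in BAT and 1 of 10 in gWAT, all lower, and of all genes for 32% (lower) and 25.2% (higher) in BAT and 10.8% and 13.4% in gWAT. The median difference of the 10 was -0.36 in BAT, against -0.08 over all genes tested, and -0.08 in gWAT, against 0.05. The sign of the BAT differences depended on the scaling, since 8 of 10 were lower when scaled to the 75th percentile and 1 of 10, Angpt1, when scaled to the spike-in controls, under which the median of all genes moved to 0.46 and that of the 10 to 0.19, and Cdh5 (0.73) and Angpt2 (0.64) were called higher. Scaled to Actb and Rplp0, all 10 were lower in BAT, 8 of them past the threshold, the median of all genes was -0.67 and that of the 10 was -0.95. Angpt1 stayed lower in both depots under each of the 5 scalings. In bulk tissue, fewer of the cells that carry these RNAs, endothelial or not, and less of these RNAs per cell cannot be told apart. None of the 10 genes passed the threshold for a difference in genotype change between the depots (limma interaction), against 48.3% of all genes (27.4% more positive in gWAT and 21% more negative), and 0 did at an unadjusted p under 0.05. Angpt2 came nearest (-0.57, limma, adjusted p = 0.117). When each of the 16 arrays was left out in turn, 2 fits held a gene past the threshold, in both cases Angpt2 alone. These were the fits without gWAT control 4 (-0.73, limma, adjusted p = 0.0386) and without BAT control 4 (-0.75, limma, adjusted p = 0.0251).

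**Figure D2:**
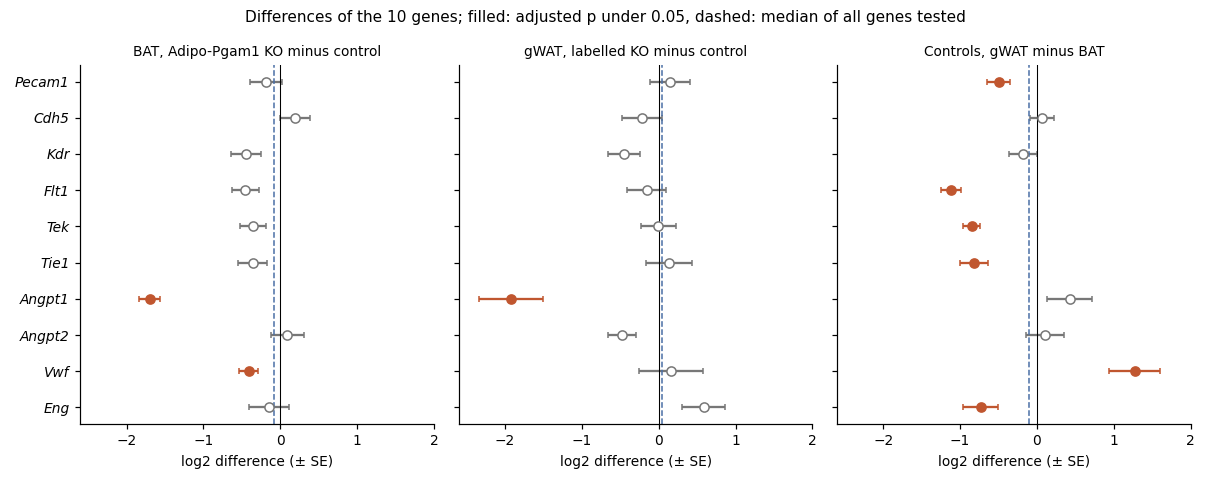
Difference of each gene between genotypes in BAT and in gWAT and between the depots of controls, in log2 units (horizontal axis) with its standard error. Filled points are past an adjusted p of 0.05 and the dashed line is the median of all genes tested. In both genotype comparisons Angpt1 lies far to the left (-1.70 and -1.92) of the other 9 genes.

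**Figure D3:**
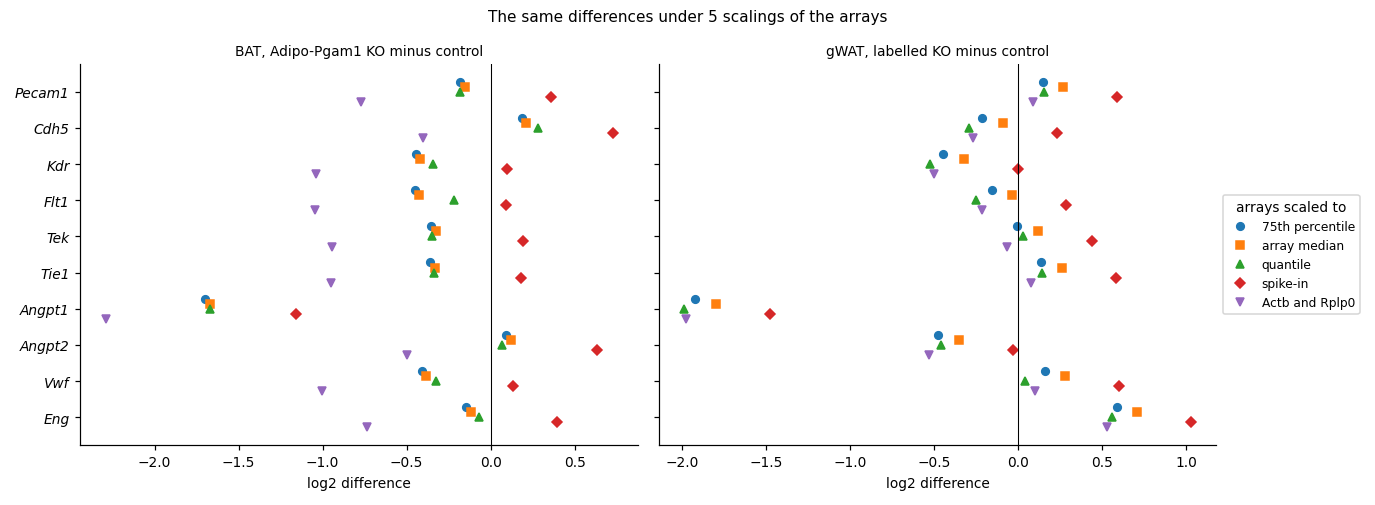
The genotype differences of the 10 genes, in log2 units (horizontal axis), under 5 ways of scaling the arrays, each with its own symbol. Spike-in scaling moves the BAT points to the right and Actb and Rplp0 scaling moves them to the left, while Angpt1 stays below 0 throughout, at -1.16 and -2.29 in BAT.

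In controls the depots differed in 6 of the 10 genes, 5 lower and 1 higher in gWAT, against 64.7% of all genes tested (35.4% lower and 29.3% higher). For 5 of these 6 the groups lay apart, 4 lower and 1 higher, against 60.8% of all genes (33.6% lower and 27.2% higher). Flt1 was 2.81, 2.76, 3.21 and 3.13 in gWAT controls, below all 4 BAT controls (difference -1.11, SE 0.13, limma, adjusted p = 1.01e-04), which is 2.16-fold lower. Tek was -0.49, -0.66, -0.52 and -0.78 in gWAT controls, also below all BAT controls (difference -0.85, SE 0.11, adjusted p = 2.32e-04). Tie1 was 0.34, -0.03, 0.03 and -0.57 in gWAT controls and 0.90, 0.79, 0.64 and 0.71 in BAT controls (difference -0.82, SE 0.19, limma, adjusted p = 0.00457). Pecam1 (-0.50) and Eng (-0.73, adjusted p = 0.0211) were lower in gWAT as well, though for Eng the groups overlapped. Vwf went the other way and was higher in gWAT, at 2.15 to 3.95 against 1.84 to 2.0 (difference 1.27, SE 0.33, limma, adjusted p = 0.00867), which is 2.42-fold. The means of Cdh5 (difference 0.07, 95% confidence interval -0.31 to 0.44), Kdr (-0.18, -0.63 to 0.26), Angpt1 (0.43, -0.29 to 1.14) and Angpt2 (0.10, -0.50 to 0.70) did not pass the threshold. Within the slide that held both groups, with 1 BAT control and 3 gWAT controls, Flt1 alone was past the threshold, and the difference was -0.66 for Tek, -0.60 for Tie1, -0.29 for Pecam1, -0.21 for Eng and 1.28 for Vwf.

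The order of the 4 groups thus differed between genes. For Flt1 it ran from BAT controls (mean 4.09) over BAT of Adipo-Pgam1 KO mice (3.64) to gWAT controls (2.98) and the arrays labelled KO in gWAT (2.82), and the only neighbours that lay apart were the BAT KO arrays and the gWAT controls. For Vwf both gWAT groups (means 3.35 and 3.19) overlapped each other and lay above BAT controls (1.91), which lay above BAT of Adipo-Pgam1 KO mice (1.5). For Angpt1, gWAT controls (1.44) and BAT controls (1.01) overlapped and lay above the gWAT arrays labelled Adipo-Pgam1 KO (-0.48) and BAT of Adipo-Pgam1 KO mice (-0.69), which overlapped. For the other 7 genes every neighbour in the order overlapped the next.

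Arrays of the same group differed for the endothelial genes together. In BAT of Adipo-Pgam1 KO mice, replicates 1 and 4 were the higher pair for Pecam1, Cdh5, Kdr, Flt1, Tek, Tie1 and Eng and replicates 2 and 3 the lower pair, as Pecam1 shows with 0.13, -0.43, -0.52 and 0.43 and Cdh5 with 2.74, 2.10, 2.01 and 2.78. Among gWAT arrays labelled Adipo-Pgam1 KO, replicate 4 was the highest for 9 of the 10 genes and the lowest for the remaining one, Angpt1, and its Cdh5 was 2.81 against 1.64 to 2.01 in the other 3. The SD was larger in the KO arrays than in controls for 7 of the 10 genes in BAT and 8 of 10 in gWAT, against 47.6% and 47.3% of all genes tested. Since most of the 10 went together between arrays, these counts are not of separate genes. The gWAT count includes replicate 4 of the arrays labelled KO and was not repeated without it. The median SD of the 10 was 0.13 in BAT controls and 0.36 in BAT of KO mice, while over all genes it was 0.20 in both.

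As a description over the 16 arrays, which share 1 scaling per array, deviations from the group means went together for the 7 genes Pecam1, Cdh5, Kdr, Flt1, Tek, Tie1 and Eng, with Pearson's r of 0.63 to 0.96 over their 21 pairs. Much of the lower end rested on gWAT array 4 labelled Adipo-Pgam1 KO, since without it, a choice made after seeing the data, the range was 0.29 to 0.93. The trio of Pecam1, Cdh5 and Tie1 remained at 0.90 to 0.93. Vwf had r of 0.43 to 0.69 with the 7 (0.04 to 0.55 without that array), Angpt2 -0.19 to 0.37, and Angpt1 -0.60 to -0.29 (-0.46 to -0.01 without that array).

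**Figure D4:**
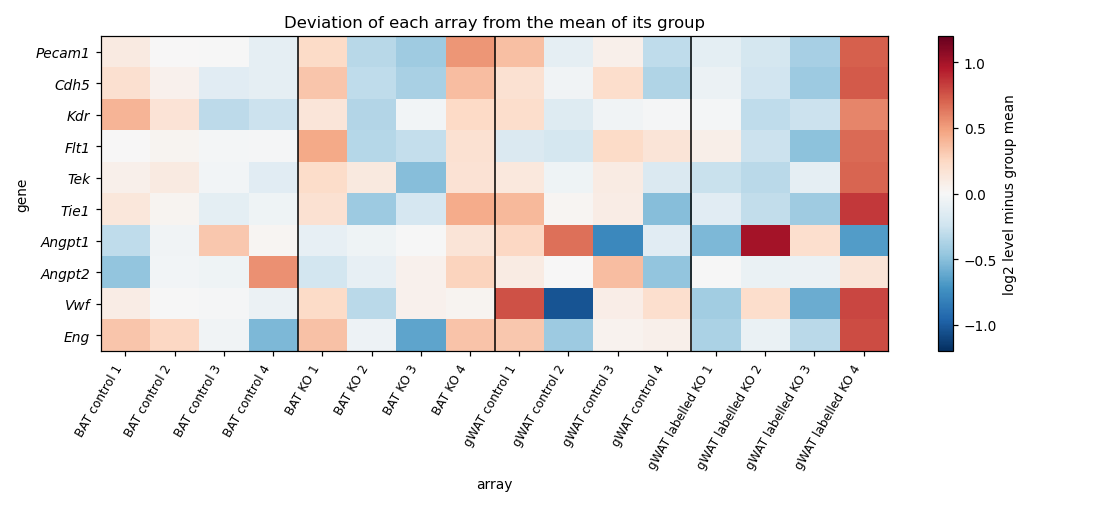
Level of each gene (rows) on each array (columns) minus the mean of its group, in log2 units (colour). The gWAT array 4 labelled Adipo-Pgam1 KO is the highest of its group for 9 genes and the lowest for Angpt1, and replicates 1 and 4 of BAT of Adipo-Pgam1 KO mice are raised together.

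Of the 12350 genes well above background on all 16 arrays, those whose level over the 16 arrays was most like each gene are named here with Pearson's r, which includes the differences between the 4 groups. Jag2, a Notch ligand, was among the closest genes of both Pecam1 (r = 0.92) and Tie1 (r = 0.93), with r of 0.91 and 0.90 for deviations within groups. Pecam1 was also close to Trib2 (0.90), and Tie1 to Tmc8 (0.92). Cdh5 was closest to Cemip2 (0.87) and Arap3 (0.84), Eng to Adcy4 (0.93) and Arhgap31 (0.85), Kdr to Unc45b (0.87) and Colec12 (0.83), Flt1 to Pitpnc1 and Gngt2 (0.92 each), Tek to Igflr1 (0.92) and Dot1l (0.91), and Vwf to Limch1 (0.91) and Pamr1 (0.91). Angpt1 was close to Fam161a (0.91), but within groups r was 0.32. For Angpt2 the closest were Ttc39aos1 and Zfp352 (0.89 each).

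In BAT, the other ligands and co-receptors of the VEGF system were called about as often as all genes. Of 7 tested genes of this list 57.1% were called, 4 lower and 0 higher, against 61.5% of all genes (34% lower), and their median was -0.70 against -0.08. Vegfb, a ligand of Flt1, fell by 1.97 (SE 0.13, limma, adjusted p = 1.16e-05), and the co-receptors Nrp1 and Nrp2 fell by 1.43 each. The partners of the angiopoietin system showed 5 lower and 1 higher of 8 (75% called), with a median of -0.48. Svep1, a matrix protein that binds Tie1, fell by 2.57 (SE 0.13), Foxo1, a transcription factor held in check by Tek signalling, fell by 1.95 (SE 0.23), and Dok2, an adaptor of Tek that leukocytes also carry, rose by 1.51 (SE 0.16). Among 14 tested partners of Eng, 4 were lower and 1 higher (35.7% called), and Smad6 (-1.37), Bmp6 (-0.91) and Id1 (-0.72), all parts of BMP signalling, were among the lower ones. Of 9 Notch genes 4 were lower and 1 higher (55.6% called), with Dll4, a ligand of growing vessel tips, at -1.19, Heyl at -0.59 and Notch1 at 0.95. Under spike-in scaling the medians of the angiopoietin, Eng and Notch lists turned positive (0.06, 0.40 and 0.04), while that of the VEGF list was -0.16.

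The share called in the other vessel wall lists of BAT ran from 30.8% to 60%, below the 61.5% of all genes. Of 20 junction and surface genes of endothelial cells, 8 were lower and 2 higher (50% called), with a median of -0.30 that turned to 0.24 under spike-in scaling. Mcam (-1.28) and Nos3, the endothelial nitric oxide synthase (-1.04), were lower, and Cd34, which endothelial cells share with fibroblast progenitors, was higher (1.21). Of 11 tested pericyte and smooth muscle genes 4 were lower and 1 higher (45.5% called, median -0.37, 0.17 under spike-in scaling), with the pericyte genes Rgs5 (-0.86) and Kcnj8 (-0.82) lower and Des, also a muscle gene, higher (0.89). Of 11 tested adhesion and haemostasis genes 5 were higher and 0 lower (45.5% called, median 0.82), among them Vcam1 (2.36, SE 0.36) and Procr (0.90). Of 13 endothelial transcription factors 4 were higher and 0 lower (30.8% called, median 0.24, -0.35 under Actb and Rplp0 scaling), led by Lmo2 (2.21), Mef2c (0.62) and Fli1 (0.48), all of which blood cells use as well. The call of Mef2c was lost (adjusted p up to 0.0977) without any 1 array but BAT control 1 or KO array 4. Of 5 tested lymphatic genes 3 were higher (60% called, median 0.85), and these were Lyve1 (2.26), Pdpn (2.15) and Itga9 (0.85), of which Lyve1 is also carried by macrophages and Pdpn by fibroblasts, while Prox1, the defining factor of lymphatic endothelium, was not well above background on any BAT array. Among 12 tested genes of hypoxia and angiogenic cues 5 were higher and 2 lower (58.3% called), with Egln3, an oxygen sensor, at -2.95 and the anti-angiogenic proteins Thbs1 and Thbs2 at 3.21 and 2.0. Without single arrays Thbs1 ran from 2.54 (without BAT control 3) to 4.16 (without KO array 3), and its call was lost (adjusted p up to 0.129) without BAT control 3 or 4 or KO array 1, 2 or 4.

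Marker lists of other cell types of BAT are set against 61.5% of all genes called (27.5% higher and 34% lower). The share called was 90% for adipocyte, 85.7% for brown adipocyte, 85.7% for fibroblast and 70% for macrophage genes. It was 75% for leukocyte, 33.3% for platelet and 25% for skeletal muscle genes. All 10 adipocyte genes had lower means, 9 past the threshold (median -1.08), and their summed signal was 3002 to 3329 times the 75th percentile in controls and 1135 to 1554 in Adipo-Pgam1 KO mice. Macrophage genes rose in 7 of 10 (median 2.38), with sums of 28.8 to 40.3 and 91.4 to 134, and fibroblast genes in 6 of 7 (median 1.53), with sums of 129 to 176 and 236 to 340. The 20 junction and surface genes summed to 329.7 to 377 in controls and 185 to 285 in KO mice, and the pericyte and smooth muscle genes to 53.3 to 76.2 and 49.9 to 58.7. Of the platelet genes, which share Vwf with endothelium, 1 of 3 tested rose, Pf4, which macrophages can make as well, and Gp5 was not well above background in either BAT group. Leukocyte genes rose in 3 of 4 tested. Brown adipocyte genes fell in 6 of 7, with sums of 4282 to 4615 in controls and 1409 to 2326 in KO mice. Skeletal muscle genes summed to 0.533 to 1.28 in controls, but to 92.9 in KO array 1 and 16.7 in KO array 3, which stood apart from KO arrays 2 (1.01) and 4 (1.60). The part of these cell types in the differences of Angpt1 and Vwf was not tested. Nor was it tested for the genes of the vessel lists. Other cells that carry a gene were named above mainly for genes that rose, and which cells carry those that fell was not examined.

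**Figure D5:**
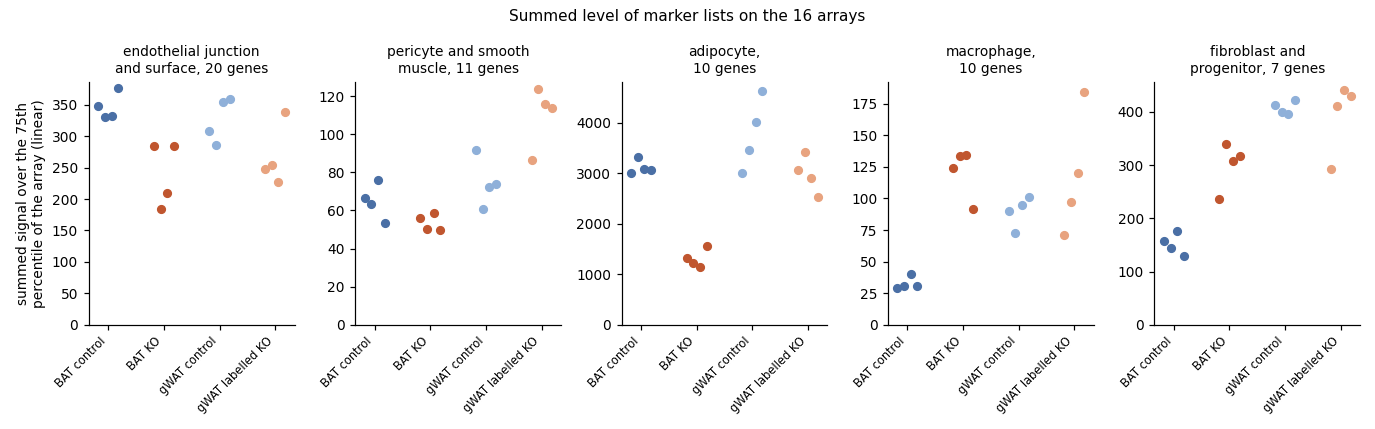
Summed signal of 5 lists of marker genes on each of the 16 arrays, relative to the 75th percentile of the array on a linear axis that starts at 0. Adipocyte genes sum to 3002 to 3329 in BAT controls and 1135 to 1554 in BAT of KO mice, macrophage genes to 28.8 to 40.3 and 91.4 to 134, and the 20 endothelial junction and surface genes to 329.7 to 377 and 185 to 285.

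In gWAT, where 17.8% of all genes passed the threshold, the share ran from 0% to 27.3% over these lists. None of 7 VEGF genes did in limma, with 1 (Nrp2) at an unadjusted p under 0.05, and the median was -0.14. Of 8 angiopoietin partners 25% passed, of which Grb14, an adaptor of receptor kinases, was lower (-1.39, SE 0.28, adjusted p = 0.0143 in limma) and Angptl1, a secreted relative of the angiopoietins, was higher (1.77, SE 0.35) in the arrays labelled Adipo-Pgam1 KO. Of 14 partners of Eng, Tgfbr2 was higher (0.58) and Smad5 lower (-0.40, but 0.04 under spike-in scaling), which is 14.3%. Notch1 (-1.42, SE 0.21) was the 1 of 9 Notch genes, Sox7 (-1.52, SE 0.38) the 1 of 14 transcription factors and Mcam (-1.10, SE 0.28) the 1 of 20 junction and surface genes past the threshold, all lower, or 11.1%, 7.14% and 5%. The groups overlapped for Sox7. Of 11 haemostasis and adhesion genes 3 were lower (27.3%), among them the endothelial anticoagulant Thbd (-1.09) and F8 (-0.68), and of 11 pericyte and smooth muscle genes Des (1.52) and Acta2 (1.33) were higher and Abcc9 (-0.93) lower (27.3%). Several of these gWAT calls were lost without single arrays. Sox7 lost it without control 1 or 2 or labelled KO array 1, 2 or 3 (adjusted p up to 0.0831), Mcam without any array but control 1 or labelled KO array 4 (up to 0.0856), F8 without any but labelled KO array 2 (up to 0.085) and Smad5 without any but control 1 (up to 0.119). Tgfbr2 lost it without control 2 or labelled KO array 1 or 3 (up to 0.0689), and Abcc9 without control 3 or labelled KO array 2 or 3 (up to 0.0636). Of 14 genes of hypoxia and angiogenic cues, Egln3 was higher (2.12) and Fgf2 lower (-0.90). None of 5 lymphatic genes passed in limma, and 0 did at an unadjusted p under 0.05.

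Of the marker lists of other cell types in gWAT, the brown adipocyte list had 80% called. The adipocyte, macrophage and fibroblast lists had 20%, 10% and 14.3%, against 17.8% of all genes. Of 10 adipocyte genes 2 were lower (median -0.15), with sums of 3004 to 4638 in controls and 2532 to 3426 in the arrays labelled Adipo-Pgam1 KO, and of 10 macrophage genes 1 was higher, with sums of 72.3 to 101 and 70.9 to 185. Of 5 tested brown adipocyte genes 4 were higher (median 2.18), with sums of 26.5 to 62.1 and 127 to 329, and Ucp1 was not well above background in any gWAT control. Of 7 fibroblast genes 1 was lower, with sums of 396 to 423 and 293 to 441. Some of these calls rested on single arrays. In 8 fits without 1 array each, the macrophage gene Cd68 was called in 2 (limma, adjusted p up to 0.0895). Adipoq was called in 4 (up to 0.0673) and the brown adipocyte gene Elovl3 in 5 (up to 0.0643). Retn, Cidea, Cox7a1 and the fibroblast gene Dpt were called in all 8. The pericyte and smooth muscle genes summed to 60.6 to 91.8 in controls and 86.3 to 124 in the arrays labelled Adipo-Pgam1 KO. Replicate 4 of these arrays, which was the highest for 9 of the 10 genes, also had the highest macrophage sum (184.5) and the lowest adipocyte sum (2532), and the part of these cells in its position was not tested.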

How the data were processed

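Total RNA (100 ng per array in the labels) was labelled with Cy3 and hybridized to 1-colour Agilent mouse arrays with 62976 spots and 56605 probes. The authors deposited the signal intensity of each spot from Agilent Feature Extraction 10.7.1.1 (version per the submitters' processing notes), with background and spatial trend subtracted, and a table of intensities normalized in GeneSpring, which equals the signal over the array's 75th percentile (offsets up to 0.00504 on the log2 scale). Here, 52 to 98 spots of irregular signal per array were left out, spots of a probe were averaged, each array was divided by its 75th percentile, and log2 was taken. No spot was saturated. RefSeq accessions gave 32994 probes 1 symbol, 23611 had none, and the brightest probe stood for a gene.

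A gene was tested where all 4 arrays of at least 1 compared group held its probe well above background. Tests were two-sided, with limma 3.58.1 (R 4.3.3), and Benjamini-Hochberg adjusted over all genes tested. Precision is limited by the number of arrays. Confidence intervals were taken from limma's SE with the residual degrees of freedom alone, which makes them somewhat wider than limma's p-values imply. The limma step was tested on simulated arrays with known changes in each comparison. These arrays held no slide effect and no correlation between genes, so they cannot show how the overlap of slide and group affects the calls. Alternatives were other scalings, background correction, probe filters, slide and replicate blocks, the methods' t-test and leaving out each array. Named were the 10 genes, Pgam1, the 2 most similar genes for each, and for each list and genotype comparison up to 3 genes of largest change past the threshold (adjusted p under 0.05), of which some are not reported here. Members and lists were chosen with earlier results of these data known.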

Additional observations from a re-analysis of the deposited data

Results flagged for a closer look

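Of the 40 sets of 4 arrays given by 10 genes and 4 groups, 1 held an array that stood apart: Tek in replicate 3 of the BAT arrays of Adipo-Pgam1 KO mice, where the gap to the next array was 0.865 of the range of the group. Chance alone gives about 1 such set in 20.

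The genotype change differed between the depots for Pgam1 (2.69) and for 23 of the 40 named genes of vessel lists (limma interaction over 16 arrays, adjusted p under 0.05). Over all genes the share was 48.3%. These 40 were named for large changes in 1 of the genotype comparisons on the same arrays. Their count is thus a description and cannot be set against that of the 10 genes or the share of all genes. Values are the gWAT change minus the BAT change in log2 units, and the gWAT direction rests on the label. More positive in gWAT were Egln3 (5.08), Svep1 (2.18), Angptl1 (1.96), Vegfb (1.82), Smad6 (1.57), Foxo1 (1.40), Nrp1 (1.11), Bmp6 (1.09) and Rgs5 (0.72). More negative in gWAT were, among others, Thbs2 (-2.67), Lyve1 (-2.47), Notch1 (-2.37), Pdpn (-2.16), Vcam1 (-2.11), Lmo2 (-1.87), Dok2 (-1.58), Cd34 (-1.42), Thbd (-1.40), Procr (-0.95), Itga9 (-0.83), Fli1 (-0.80) and Smad5 (-0.36). Past the threshold in both depots, in opposite directions, were among others Notch1 (0.95 in BAT and -1.42 in gWAT) and Egln3 (-2.95 and 2.12).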

How the results depend on the processing

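The lower level of Angpt1 kept its direction in both depots under every alternative, and its call in BAT under every alternative. Without single arrays, its change lay between -1.80 and -1.59 in BAT and between -2.25 and -1.70 in gWAT. Over all alternatives, 878 member values kept direction and side of the threshold, 24 lost the call, 19 gained one and 69 turned sign. Several alternatives could change the p-value of a member but not its difference. These were averaging of probes (each gene has 1), the probe filters, the t-test, the single fit of all arrays and the replicate block. The deposited table could hardly move a value either, so the 878 include directions fixed in advance. The count of the 10 genes past the threshold in BAT (2) was 8 with Actb and Rplp0 scaling (all lower), 3 with spike-in scaling (Cdh5 and Angpt2 higher, Angpt1 lower), 3 with only genes well above background on all arrays (Flt1 added) and 1 with all 16 arrays in 1 fit, with the slide as a fixed block or within the shared slide, and 1 to 3 without single arrays (1 without BAT control 1). In gWAT (1) it was 0 with the methods' t-test (Angpt1, adjusted p = 0.0562), with the slide as a fixed block, within the shared slide and without gWAT array 1 labelled KO, and 2 without gWAT control 4 or gWAT array 4 labelled KO, thus 0 to 2. For the depots' difference in genotype change (0) it was 1 with Actb and Rplp0 scaling (Eng, 1.27, adjusted p = 0.0305) and 0 to 1 without single arrays (1, Angpt2, without BAT control 4 or gWAT control 4). Between the depots of controls (6) it was 7 with Actb and Rplp0 scaling (Kdr added), 5 with all 16 arrays in 1 fit (Pecam1 lost), 3 with spike-in scaling, 2 with the slide as a fixed block, 1 within the shared slide and 5 to 7 without single arrays (Eng was lost without BAT control 1, BAT control 2 or gWAT control 2). The methods' t-test, before adjustment, passed 2 of the 10 in BAT, 2 in gWAT and 6 between depots. Same-numbered samples of BAT and gWAT had correlations of deviations from -0.185 to 0.295 over genes. Those of control and KO mice, which are different animals, ran from -0.142 to 0.435. These values cannot decide whether BAT and gWAT of a number share a mouse, and the main fits took all samples as unpaired. With the replicate block, 2 members passed in BAT, 1 in gWAT, 0 for the interaction and 6 between depots, and Pgam1 in gWAT had an adjusted p of 0.0514. Over all genes, the 2525 past the threshold in gWAT were 5100 with spike-in scaling, 4040 with all 16 arrays in 1 fit, 1618 with the methods' t-test, 1384 with arrays centred on their medians, 1138 with no filter, 1087 with the replicate block, 184 with the slide as a fixed block, 121 within the shared slide and 1080 to 3211 without single arrays. The 7162 of the interaction were 3265 with the slide as a fixed block, and the 9254 between depots were 4738 within the shared slide. Within 1 slide the interaction could not be fitted.

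Signs turned for these values, none past the threshold under the alternative that turned it (Vwf and Fli1 in BAT and Smad5 in gWAT had been past it), and the cause was not tested. In BAT they were, with spike-in scaling, Pecam1 0.36, Kdr 0.095, Flt1 0.090, Tek 0.19, Tie1 0.18, Vwf 0.13 and Eng 0.40; with Actb and Rplp0 scaling, Cdh5 -0.41, Angpt2 -0.50 and Fli1 -0.11; with the slide as a fixed block or within the slide, Eng 0.39 and Angpt2 -0.46; and with the slide as a random block, Angpt2 -0.0034. In gWAT they were Tek 0.026 with quantile normalization and 0.12 with arrays centred on their medians; with spike-in scaling, Cdh5 0.23, Flt1 0.29, Tek 0.44 and Smad5 0.040; and with the slide as a fixed block or within the slide, Cdh5 0.14, Tek 0.16 and Vwf -0.041. Of the interaction, Kdr (0.0009) was -0.18 with quantile normalization, -0.098 with spike-in scaling, -0.016 with normexp, -0.00062 in the deposited table, -0.24 and -0.054 with the slide as a fixed or random block, and -0.11 without both arrays labelled 14 weeks, an alternative chosen after seeing the data in which Angpt1 was 0.052. Flt1 was -0.032 with quantile normalization, Cdh5 0.13 and Angpt1 0.31 with Actb and Rplp0 scaling, and Angpt2 0.45 with the slide as a fixed block. Between depots, Kdr was 0.045 with spike-in scaling and 0.079 with the slide as a fixed block or within the slide, where Angpt2 was -0.29, and Cdh5 was -0.27 and Angpt2 -0.23 with Actb and Rplp0 scaling. Without single arrays the ranges that crossed 0 were -0.33 to 0.065 (Eng) and -0.064 to 0.28 (Angpt2) in BAT; -0.092 to 0.28 (Pecam1), -0.38 to 0.0086 (Flt1), -0.24 to 0.10 (Tek), -0.15 to 0.28 (Tie1) and -0.19 to 0.41 (Vwf) in gWAT; -0.55 to 0.00079 (Angpt1) and -0.19 to 0.11 (Kdr) for the interaction; and -0.053 to 0.29 (Angpt2) and -0.0042 to 0.19 (Cdh5) between depots.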
